A study of Mus musculus with 45 samples.

Results

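The 10 genes described here are the Notch receptors Notch1, Notch2 and Notch3, the ligands Dll1, Dll4 and Jag1, the target gene Hes1 and the secretory regulators Atoh1, Gfi1 and Spdef. They were taken by gene name from both deposited tables, each of which lists 52636 mouse genes, and all 10 were found in both. The tables hold 45 RNA-seq libraries from the small intestine, 15 of sorted Lgr5 reporter cells and 30 of organoids. They were used to compare stem cells that carry or lack the Rspondin receptor Lgr5. Sorted eGFP+ve cells of the Lgr5-DTReGFP line, in which the knocked-in reporter disrupts Lgr5, came from E16.5 whole small intestine of heterozygous (HE, 2 pools of 7 and 8 embryos) and homozygous null (KO, 2 pools of 2 and 6 embryos) litters 85 and 97, from 2 HE embryos at E18.5, and from duodenum and ileum of 2 HE mice aged 2 months. Double positive eGFP+ve/RFP+ve ileal cells came from mice of the same age killed 48 h after 2 mg of tamoxifen, 2 of them Lgr5-Cre/+ (HE) and 3 Lgr5-Cre/flox (cKO), so that every sorted sample carries at least 1 disrupted Lgr5 allele. Organoids were passage 4 cultures of E17.5 Lgr5-DTReGFP small intestine, 3 wild-type (WT cultures 10, 5 and 30) and 2 KO (cultures 7 and 2), each grown from 1 embryo in mouse Rspondin 1, 2 or 3 (Rspo1, Rspo2, Rspo3) at 100 or 5 ng/ml.

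Notch receptors are cleaved after contact with a ligand on a neighbouring cell, and the freed intracellular part joins the DNA-binding protein RBPJ to switch on targets such as Hes1. In the intestinal crypt, Hes1 represses Atoh1, the transcription factor that a cell needs to become secretory, so that cells with active Notch stay progenitors or become absorptive while neighbours with Atoh1 express the ligands Dll1 and Dll4. Gfi1 and Spdef act downstream of Atoh1 in the goblet and Paneth lineages, and Rspondins raise Wnt signalling, which maintains crypt stem cells and Paneth cells.

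Promoter sequence is shown for 4 members, because Notch2, Dll4 and Spdef rose with the Rspondin dose in organoids and Atoh1 was higher in ileum than in duodenum. The 250 bases upstream of the annotated start were read from RefSeq (build GRCm38.p6), which gave an entry for 9 of the 10 members and 11 promoters in all. Hes1 had none. Matches to 3 motifs were searched on both strands, namely TGGGAA, the core of the RBPJ site, CTTTGAT, a core of the TCF/LEF site through which Wnt signalling acts, and CAGCTG, an E-box. Capitals mark a match. The Notch2 window is chr3:98013288-98013537 on the plus strand and the Dll4 window is chr2:119325534-119325783 on the plus strand. The Atoh1 window is chr6:64728875-64729124 on the plus strand and the Spdef window is chr17:27728952-27729201 on the minus strand.

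Notch2: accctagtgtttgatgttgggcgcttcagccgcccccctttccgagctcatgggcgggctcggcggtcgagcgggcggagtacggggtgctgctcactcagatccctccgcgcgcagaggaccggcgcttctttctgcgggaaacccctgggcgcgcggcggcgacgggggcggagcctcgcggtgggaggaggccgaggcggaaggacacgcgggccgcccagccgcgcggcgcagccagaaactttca

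Dll4: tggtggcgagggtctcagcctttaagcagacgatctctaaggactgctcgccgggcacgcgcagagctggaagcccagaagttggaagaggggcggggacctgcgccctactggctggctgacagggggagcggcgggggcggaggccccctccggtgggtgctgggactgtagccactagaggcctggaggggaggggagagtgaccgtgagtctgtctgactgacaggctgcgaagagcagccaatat

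Atoh1: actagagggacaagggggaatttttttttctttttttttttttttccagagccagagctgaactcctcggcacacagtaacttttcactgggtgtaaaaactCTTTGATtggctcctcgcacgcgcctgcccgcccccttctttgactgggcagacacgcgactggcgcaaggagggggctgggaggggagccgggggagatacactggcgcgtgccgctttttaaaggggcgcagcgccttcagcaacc

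Spdef: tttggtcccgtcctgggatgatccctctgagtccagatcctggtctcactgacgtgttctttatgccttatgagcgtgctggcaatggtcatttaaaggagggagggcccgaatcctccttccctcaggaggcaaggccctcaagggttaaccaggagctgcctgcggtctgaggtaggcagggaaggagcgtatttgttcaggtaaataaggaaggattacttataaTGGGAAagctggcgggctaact

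Atoh1 held CTTTGAT 148 bases upstream of its start, Spdef held TGGGAA 22 bases upstream, and neither the Notch2 nor the Dll4 window held any of the 3. Of the other members, Jag1 and the second Dll1 start held CAGCTG, and the Notch1, Notch3 and Gfi1 windows held no match. Over 32851 promoters of 27025 genes, windows of the same length held TGGGAA in 21.6%, CTTTGAT in 3.21% and CAGCTG in 13.0%. A match of this kind describes letters and not a bound site, and the absence of one describes only this window.

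The reads on genes, inferred from the steps between CPM values, ranged from 1275871 to 9978173 for sorted cells and from 18127797 to 33105594 for organoids. The shallowest libraries are the E16.5 pools, in which 1 read is worth 0.383 to 0.784 CPM, so members near 1 CPM there rest on single reads. Every library labelled KO or cKO held reads on the Lgr5 gene. Lgr5 was at 64.75 and 51.65 CPM in E16.5 KO pools against 104.25 and 125.10 CPM in HE pools, and at 89.15, 109.35 and 90.65 CPM in cKO libraries against 52.80 and 87.55 CPM in their HE libraries. A gene total cannot separate transcripts of a disrupted allele, so it checks none of these labels. Among 8 epithelial markers the summed CPM stayed between 2826.95 and 7277.35 in all sorted libraries, whereas the sum of 12 mesenchymal and mural markers was 1082 to 2029 CPM in E16.5 HE pools, 229 to 628 in E16.5 KO pools, 98.9 to 109 at E18.5 and at most 70.8 in adult libraries. Fewer cells of a type and less RNA per cell cannot be told apart in such bulk samples.

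Compared per kilobase of exon, Hes1 was the highest member in every Lgr5-DTReGFP group of sorted cells, from a mean of 20.4 CPM per kb in E16.5 HE pools to 47.7 at E18.5. It was also the highest in all 12 organoid groups, from 37.3 to 53.9 CPM per kb, and Dll1 came next there with 26.9 to 35.1. Among receptors, Notch1 and Notch2 lay between 4.03 and 12.5 CPM per kb in all sorted groups, and Notch3 was the lowest of the 3 in each. By group means the 5 adult Cre libraries had another order, in which Spdef came first with 47.1 CPM per kb in HE and 42.3 in cKO and Atoh1 stood at 32.4 and 35.1, against 10.2 for Spdef and 19.3 for Atoh1 in adult Lgr5-DTReGFP ileum. Spdef was the highest member in 3 of the 5 libraries, whereas Hes1 was in cKO library 2 (35.5 CPM per kb) and Atoh1 in cKO library 3 (42.8). The Cre and Lgr5-DTReGFP libraries differ in mouse line, tamoxifen and gate, so these differences cannot be told apart and were not tested. The sum of 7 goblet products was 7060 to 13566 CPM in the Cre libraries and 1571 to 8280 CPM in the adult Lgr5-DTReGFP ones, and its part in the order was not tested.

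**Figure D1:**
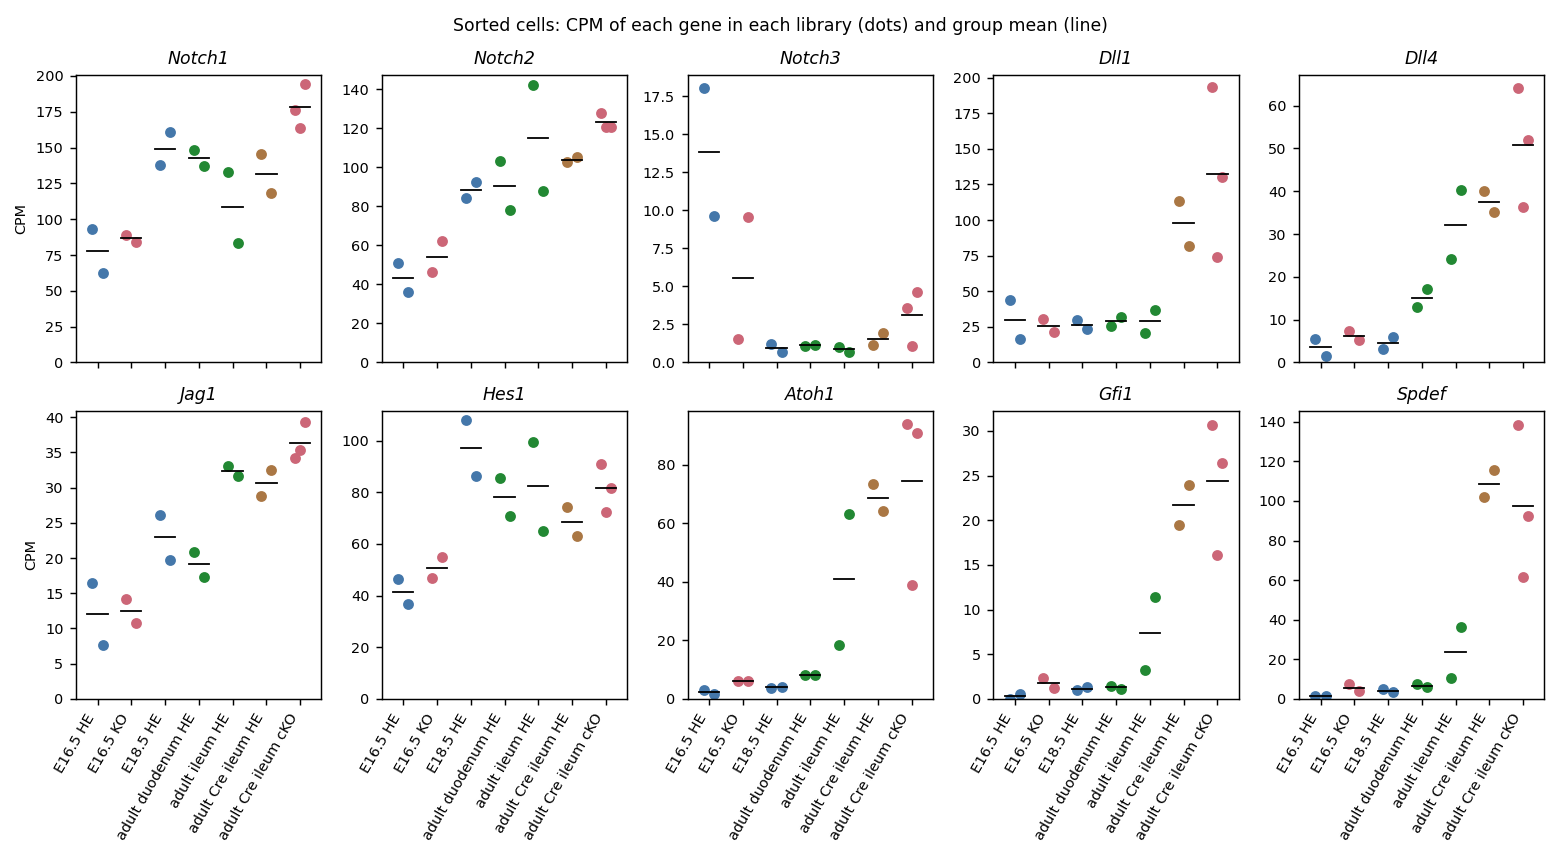
CPM of each of the 10 members in the 15 sorted-cell libraries, 1 panel per gene, with CPM on the vertical axis and the 7 groups on the horizontal axis. Points are libraries and black lines are group means, which for Atoh1, Gfi1 and Spdef are highest in the Cre ileum groups, while Notch3 is highest in the E16.5 HE pools (18.05 and 9.60 CPM), and Spdef in adult ileum is split between 10.75 and 36.20 CPM.

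At E16.5, KO pools were compared with HE pools to see what the precursors of intestinal stem cells express without Lgr5. KO pool 1 held 1.55 CPM of Xist, against 639 to 1224 CPM in the other pools. The Y-linked Ddx3y was at 25.45 to 81.60 CPM in every pool. The pools thus differed in the sex of their embryos, whose part was not tested. No member passed in limma (adjusted p under 0.1 and a change of at least 1.5-fold), and 0.527% of 17276 genes did. At an unadjusted p under 0.05 there were 3 of the 10 members, beside 13.6% of genes, and edgeR and DESeq2 on the recovered reads called none of the members they tested, beside 2.78% and 0.439% of genes. The 3 secretory regulators lay higher in both KO pools, on few reads. Spdef, an ETS factor of goblet and Paneth maturation, was at 1.60 and 1.55 CPM in HE pools (2 and 3 reads) and at 7.30 and 4.00 CPM in KO pools (19 and 10 reads). Its log2 difference in log2(CPM + 1), the scale of all log2 values here, was 1.32 with an SE of 0.48 (limma adjusted p = 0.279). Atoh1 stood at 3.15 and 1.55 CPM in HE pools and at 6.15 and 6.00 CPM in KO pools, a log2 difference of 1.12 (SE 0.47, limma adjusted p = 0.332). Gfi1, a zinc-finger repressor, had 0 and 1 reads in HE pools and 6 and 3 reads in KO pools (limma adjusted p = 0.392). For each of these genes the pools of the 2 genotypes did not overlap. The sum of the 7 goblet products was also higher in KO pools (834.25 and 521.00 CPM) than in HE pools (414.75 and 396.15 CPM). Of these 7, 1 was at 0 in each KO pool and none in HE pools. The sum of 10 stem cell markers was higher too, at 1995 to 2211 CPM against 1567 to 1627 CPM. That of 6 enteroendocrine products overlapped, at 98.6 to 163.65 CPM in KO pools and 142.8 to 153.5 CPM in HE pools. The 5 Paneth products summed to 43.75 to 90.85 CPM in KO pools against 23.35 to 23.60 CPM. Other sums were lower in KO pools. They were those of 10 absorptive products (918.5 to 1036 against 1805 to 2294 CPM), 5 erythroid markers (245 to 369 against 812 to 894 CPM) and 10 immune markers (29.35 to 41.50 against 75.5 to 124.9 CPM). The part of these sums in the members' values was not tested.

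Hes1, the repressor of Atoh1, did not lie lower in these KO pools. It was at 46.25 and 36.85 CPM in HE and at 46.75 and 54.80 CPM in KO, a log2 difference of 0.29 (SE 0.20, limma adjusted p = 0.551). Notch3, a receptor known from mural cells, was at 18.05 and 9.60 CPM in HE pools and at 1.55 and 9.55 CPM in KO pools, so the second pool of each genotype had almost the same level. Its log2 difference was -1.45 (SE 0.61, limma adjusted p = 0.332), and with the litter as a block it was called (limma adjusted p = 0.0382, where 4.8% of genes were called). The mesenchymal and mural marker sum followed the same order of genotypes, and its part in the Notch3 values was not tested. In total 4 members, Hes1 among them, lay higher in KO without overlap and 1, Notch3, lower, where 46% of genes did not overlap. For Hes1 the nearest pools were HE pool 1 (46.25 CPM) and KO pool 1 (46.75 CPM). For Notch3 they were HE pool 2 (9.60 CPM) and KO pool 2 (9.55 CPM). Both gaps are smaller than 1 read, which is worth 0.784 CPM in HE pool 1 and 0.504 CPM in HE pool 2. Hes1 and Notch3 are therefore not clearly separated by genotype. The other 5 members, Notch1, Notch2, Dll1, Dll4 and Jag1, overlapped between genotypes with log2 differences from -0.07 to 0.82. Leaving out each of the 4 pools in turn again gave 0 called members.

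**Figure D2:**
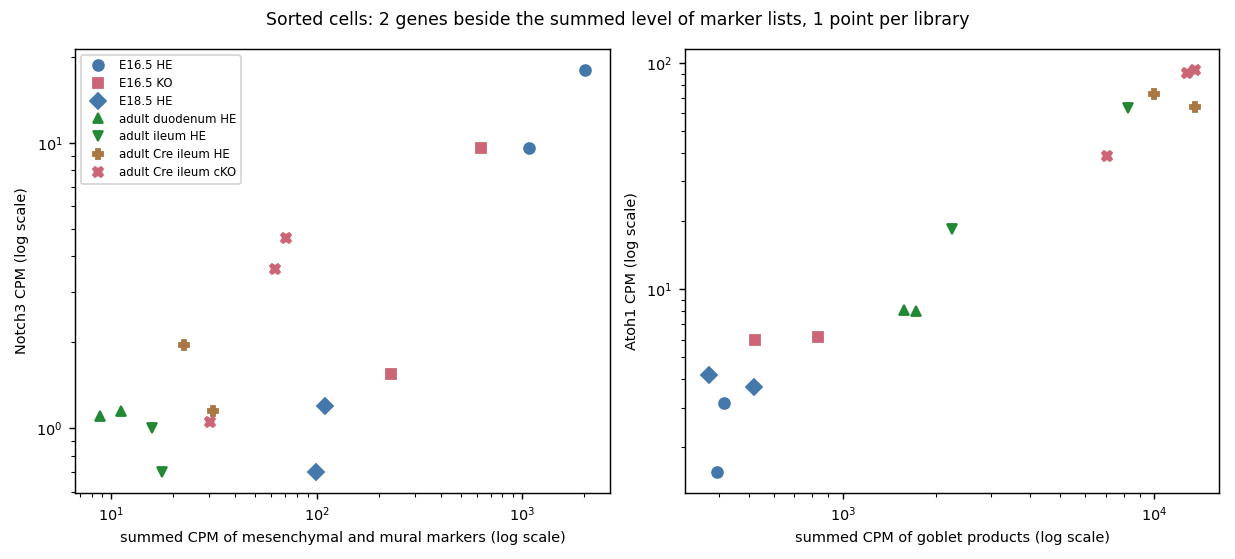
Sorted cells, 1 point per library on log axes, with Notch3 CPM against the summed CPM of 12 mesenchymal and mural markers (left) and Atoh1 CPM against the summed CPM of 7 goblet products (right); colours and symbols mark the 7 groups. The E16.5 HE pools hold the highest marker sums and Notch3 levels (1082 to 2029 CPM and 9.60 to 18.05 CPM), and Atoh1 lies between 1.55 and 8.10 CPM in the 8 libraries with goblet sums up to 1725 CPM and between 19 and 94 CPM in the other 7.

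From E16.5 to E18.5, HE cells gained receptors and Hes1 and lost Notch3. Of 9 members tested, 5 rose and 1 fell, in a comparison in which 49.6% of 18408 genes were called (30.3% higher, 19.4% lower), and the median gene rose by 0.23. Notch1, the main receptor of crypt stem cells, was at 93.30 and 62.55 CPM at E16.5 and at 138.15 and 160.55 CPM at E18.5 (log2 0.95, SE 0.20, limma adjusted p = 0.0101). Notch2 went from 50.95 and 35.85 CPM to 83.95 and 92.45 CPM (log2 1.03, SE 0.19, limma adjusted p = 0.00634). Hes1 went from 46.25 and 36.85 CPM to 107.95 and 86.30 CPM (log2 1.21, SE 0.17, limma adjusted p = 0.00284). In all 3 genes both E18.5 embryos lay above both E16.5 pools, as 45.8% of genes did. E18.5 embryo 1 held 11.3 CPM of Xist and 74.3 CPM of Ddx3y. Embryo 2 held 5175 CPM of Xist and 0 CPM of Ddx3y, so the embryos differed in sex. Both E16.5 HE pools held both transcripts, and the part of sex was not tested.

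Notch3 moved the other way, from 18.05 and 9.60 CPM to 1.20 and 0.70 CPM (log2 -2.88, SE 0.41, limma adjusted p = 0.00271). Over the same stages all 12 mesenchymal and mural markers were called lower, and the sum of 5 erythroid markers went from 812 to 894 CPM at E16.5 to 23.40 to 43.75 CPM at E18.5. The sum of 10 stem cell markers, Lgr5 and Olfm4 among them, went from 1567 to 1627 CPM to 4832 to 5232 CPM. The part of these cells in the members' values was not tested. The ligand Jag1 rose from 17 and 7.6 CPM to 26.10 and 19.75 CPM (log2 0.95, SE 0.37, limma adjusted p = 0.0749), and Spdef from 1.60 and 1.55 CPM to 4.85 and 3.30 CPM (log2 0.96, SE 0.35, limma adjusted p = 0.0605). Dll1, Dll4 and Atoh1 were not called, with log2 differences of -0.03, 0.42 and 0.60. Gfi1 was below the 1 CPM minimum in too many libraries to be tested. With either E18.5 embryo left out, none of the 6 calls was kept, although every sign was (limma adjusted p of 0.167 to 0.524 over the 6). Spdef was also lost without E16.5 HE pool 1 or 2 (0.113 and 0.116) and Jag1 without pool 2 (0.237), with no filter on low values (0.216) or with a pseudocount of 0.1 (0.111), while Atoh1 was called without pool 1 (0.0651) and Dll1, lower, without pool 2 (log2 -0.72; 0.0906). Relative to the median gene, Hes1 stood 0.98 higher, Notch1 0.73 and Notch2 0.80.

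In adult HE cells the delta-like ligand Dll4 was higher than at E18.5, and it was the 1 member called among the 10 where 19% of 19554 genes were. Dll4 was at 3.25 and 5.95 CPM in E18.5 embryos, at 13.05 and 17.10 CPM in adult duodenum and at 24.10 and 40.30 CPM in adult ileum. All 4 adult libraries lay above both embryos, a pattern shared by 18.9% of genes, with a log2 difference of 2.06 (SE 0.43, limma adjusted p = 0.0177). Without E18.5 embryo 1 or 2 the limma adjusted p was 0.224 or 0.122. By Xist (at most 10.75 CPM) and Ddx3y (at least 85.10 CPM) the 4 adult libraries are male, as is E18.5 embryo 1, whereas embryo 2 is not. The part of sex in the members' values was not tested. The receptors did not follow Dll4. Notch1 averaged 126 ± 28.9 CPM (SD, n = 4) in adult cells and 149 ± 15.8 CPM (SD, n = 2) at E18.5, and Hes1 80.2 ± 15.5 CPM and 97.1 ± 15.3 CPM, with overlap in both cases. Notch3 remained near 1 CPM in each of these 6 libraries, between 0.70 and 1.20. Over the same stages the sum of 7 goblet products went from 372.5 to 518 CPM to 1571 to 8280 CPM. That of 5 Paneth products went from 57.3 to 59.45 CPM to 7464 to 24031 CPM. The 4 tuft products went from 2.15 to 4.85 CPM to 197 to 2846 CPM. The sum of 10 stem cell markers was also higher, that of 10 absorptive products was lower, and that of 6 enteroendocrine products overlapped. The part of these cells in the members' values was not tested.

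Atoh1 and Spdef were spread widely among the adult libraries. Atoh1 was at 3.70 and 4.20 CPM at E18.5, at 8.05 and 8.10 CPM in duodenum and at 19 and 63 CPM in ileum. Its log2 difference from E18.5 was 1.86 (SE 0.74, limma adjusted p = 0.135). Spdef was at 4.85 and 3.30 CPM at E18.5, at 7.50 and 5.85 CPM in duodenum and at 10.75 and 36.20 CPM in ileum (log2 1.33, SE 0.62, limma adjusted p = 0.192). Neither overlapped with E18.5. With the ileum alone as the adult group, both were called along with Gfi1 (limma adjusted p = 0.00623 for Atoh1, 0.0247 for Spdef and 0.0433 for Gfi1), where 23.4% of genes were called, and with the duodenum alone only Atoh1 was called among the 3 (limma adjusted p = 0.0258, where 28% of genes were). The 2 regions come from the same 2 mice and are not independent, and with the mean of both regions of each mouse 4 members were called, the 3 regulators and Dll4, where 26.3% of genes were. In a fit of all 15 sorted-cell libraries Atoh1 (limma adjusted p = 0.0462) and Spdef (0.0914) were called beside Dll4, where 16.9% of genes were. Among single libraries, Atoh1 was called without duodenum 2 (limma adjusted p = 0.0920) or ileum 2 (0.0732), and without both libraries of mouse 2 Atoh1 (0.0717) and Spdef (0.0847) were.

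Within the adult gut, the ileum held more of Atoh1 and of the ligand Jag1 than the duodenum. These 2 were called, both higher, where 6.88% of 18608 genes were called and 2.24% were called higher. Atoh1 was at 8.05 and 8.10 CPM in the duodenum of mice 71 and 77 and at 19 and 63 CPM in their ileum (log2 1.96, SE 0.50, limma adjusted p = 0.0845). Jag1 was at 20.90 and 17.30 CPM in duodenum and at 33.10 and 31.60 CPM in ileum (log2 0.74, SE 0.20, limma adjusted p = 0.0992). Both calls sit at the edge of the threshold and were lost under TMM scaling, with limma adjusted p of 0.107 and 0.102, with no filter, with 0.334 and 0.236, and without ileum 2, with 0.215 and 0.315. Without duodenum 1 or 2 the adjusted p was 0.511 or 0.728 for Atoh1 and 0.365 or 0.716 for Jag1, and without ileum 1 Jag1 was lost (0.298) while Gfi1 (0.0748) and Spdef (0.0644) were called. In the fit of all 15 sorted-cell libraries, where 6.03% of genes were called, Atoh1 was kept, Jag1 was lost (0.187), and Gfi1 (0.0547) and Spdef (0.0828) were called.

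With the mouse as a block, 5 members were called, where 11.1% of genes were, the added ones being Dll4, Gfi1 and Spdef. Dll4 was at 13.05 and 17.10 CPM in duodenum and at 24.10 and 40.30 CPM in ileum (log2 1.01, limma adjusted p = 0.117 without and 0.0118 with the block). Gfi1 was at 1.45 and 1.15 CPM in duodenum and at 3.20 and 11.45 CPM in ileum (adjusted p = 0.147 and 0.0485). Spdef moved from 7.50 and 5.85 CPM to 10.75 and 36.20 CPM (adjusted p = 0.198 and 0.0656). In each of the 3, mouse 77 had the larger ileal value, and in that library the 7 goblet products summed to 8280 CPM and the 5 Paneth products to 24031 CPM, against 2243 and 7464 CPM in the ileum of mouse 71. The part of these cells in the members' values was not tested. Hes1 did not separate the regions, at 85.65 and 70.75 CPM in duodenum and 99.50 and 65.05 CPM in ileum, and Dll1 averaged 28.8 and 28.9 CPM. In all, 5 members lay higher in ileum without overlap and 2, Notch1 and Notch3, lower, beside 23.6% and 22.1% of genes.

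In tamoxifen-treated ileum, recombined cKO cells were compared with HE cells to follow acute loss of Lgr5. None of the 10 members was called by limma, where 0.0504% of 19848 genes were, and at an unadjusted p under 0.05 there was 1 member, Notch1, beside 4.54% of genes. No count test was run on these libraries. Notch1 was at 145.35 and 118.05 CPM in HE and at 175.95, 163.75 and 194.40 CPM in cKO, a log2 difference of 0.44 (SE 0.14, limma adjusted p = 0.864). Notch2 was at 102.40 and 105.05 CPM in HE and at 127.70, 120.35 and 120.70 CPM in cKO (log2 0.24, SE 0.12). Both, together with Jag1, lay higher in cKO without overlap, as 15.3% of genes did. Atoh1 was at 73.25 and 64.20 CPM in HE and at 93.70, 38.85 and 90.85 CPM in cKO, and Spdef at 101.85 and 115.45 CPM against 138.65, 61.60 and 92.35 CPM. The sign for Atoh1 (log2 0.01) and for Gfi1 (log2 0.12) turned under TMM scaling, without a call. In Atoh1 and Spdef cKO library 2 was the lowest of the 5 and cKO library 1 the highest.

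The genotypes of these libraries differ between sources. The study's supplementary gene list carries HE library 1 as cKO and cKO library 2 as HE. With those genotypes, 3.92% of genes were called, and among members Dll1 was, with a log2 difference of 0.85 (limma adjusted p = 0.0743). By those genotypes Dll1 was at 82.05 and 74.20 CPM in HE and at 113.65, 193.30 and 130.10 CPM in cKO. By the deposited ones it was at 113.65 and 82.05 CPM in HE and at 193.30, 74.20 and 130.10 CPM in cKO (log2 0.35, SE 0.37). With only the 3 libraries whose genotype is the same in both sources, its log2 difference was 0.94 (limma adjusted p = 0.217). The deposited genotypes also fall with the sex of the mice, since Xist and the Y-linked Ddx3y separate the same 2 from the same 3 libraries, so that sex and genotype cannot be told apart.

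In organoids, 5 and 100 ng/ml of each Rspondin were compared within each genotype to see how members follow the Rspondin dose. In the study, the lowest concentration tested with full organoid survival was 5 ng/ml for Rspo2. For Rspo1 and Rspo3 it was 100 ng/ml. The part of survival in the members' values was not tested. In a fit of all 30 libraries without rescaling, all 3 receptors were called higher with every ligand in WT cultures, and Hes1 and Dll1 were called with none. The share of all genes called was 53.4% for Rspo1, 33.4% for Rspo2 and 51.4% for Rspo3 in WT cultures (40.9%, 24.3% and 37.8% higher) and 29.8%, 0.115% and 44.5% in KO cultures (21.9%, 0.115% and 32.7% higher), at a limma FDR of 0.05. Members called were 6, 4 and 6 of 10 in WT cultures and 6, 0 and 6 in KO cultures, all of them higher at 100 ng/ml. At an unadjusted p under 0.05 there were 2 members with Rspo2 in KO cultures, Atoh1 and Spdef, both lower at 100 ng/ml, beside 6.94% of genes. The median gene itself rose by 0.28, 0.17 and 0.24 in WT cultures and by 0.19, 0.04 and 0.24 in KO cultures, and under TMM scaling, a rescaling that centres most genes, the median gene moved by at most 0.05. Under that scaling 45.6%, 30.4% and 47.7% of genes were called in WT cultures, of which 22.2%, 12.8% and 25.8% of all genes were higher, and 26.7%, 0.047% and 41.6% in KO cultures, of which 12.5%, 0.047% and 22% were higher. Members called were then 5, 3 and 4 in WT cultures, with Dll1 and Hes1 lower for Rspo1, and 2, 0 and 3 in KO cultures. In WT cultures Notch1 was then not called with Rspo1 or Rspo3, nor Notch3 with Rspo3. In fits of the 2 groups alone Notch2 was the 1 member called with Rspo1 in KO cultures, Dll4 (limma adjusted p = 0.0708), Gfi1 (0.127), Jag1 (0.103), Notch1 (0.0551) and Notch3 (0.0743) being lost, and in WT cultures Notch1 was lost with Rspo1 (0.0730) and Gfi1 with Rspo2 (0.0649).

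Summed markers of stem and absorptive cells moved with the dose in WT cultures. The sum of 10 stem cell markers went from 525.5 to 588 CPM at 5 ng/ml to 3023 to 3776 CPM at 100 ng/ml of Rspo1, from 558 to 1377 CPM to 4270 to 6377 CPM with Rspo2 and from 139.6 to 239 CPM to 1526 to 2002 CPM with Rspo3. The sum of 10 absorptive products went from 8785 to 9482 CPM to 3715 to 4740 CPM with Rspo1, from 7207 to 14120 CPM to 4129 to 6980 CPM with Rspo2 and from 12510 to 13465 CPM to 7175 to 11859 CPM with Rspo3. Neither sum overlapped between doses with any ligand, and their part in the members' values was not tested.

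**Figure D3:**
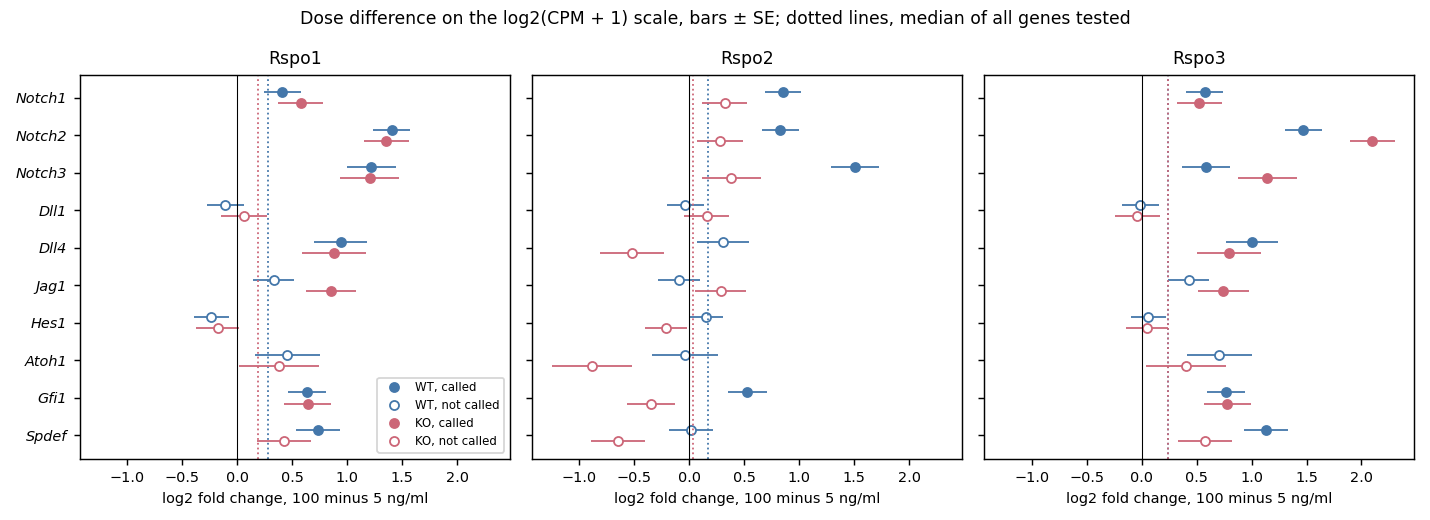
Log2 difference between 100 and 5 ng/ml (in log2(CPM + 1)) of the 10 members for each ligand, in WT (blue) and KO (red) cultures with bars of 1 SE; filled points passed the test and dotted lines mark the median of all genes. Notch2 lies between 0.83 and 2.10 except with Rspo2 in KO cultures (0.28), and Dll1 and Hes1 lie on either side of 0.

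Notch2 gave the clearest response. With Rspo1 it rose from 42.00, 44.65 and 42.55 CPM in WT cultures 10, 5 and 30 to 108.55, 123.15 and 115.50 CPM, a log2 difference of 1.40 (SE 0.17, limma adjusted p = 9.81e-07). With Rspo3 it rose from 35.45, 23.55 and 32.75 CPM to 92.90, 80.45 and 82.90 CPM (log2 1.47, SE 0.17, limma adjusted p = 2.32e-07). With Rspo2 it started higher, at 80.85, 76.10 and 70.30 CPM, and reached 139.35, 121.45 and 144.65 CPM (log2 0.83, SE 0.17, limma adjusted p = 0.000958). All 9 WT libraries at 100 ng/ml had at least 80.45 CPM, and no WT library at 5 ng/ml exceeded 80.85 CPM. In KO cultures 7 and 2 Notch2 rose from 37.05 and 61.45 to 147.40 and 103.85 CPM with Rspo1 (log2 1.36) and from 23.05 and 25.80 to 117.75 and 98.45 CPM with Rspo3 (log2 2.10, SE 0.21, limma adjusted p = 1.01e-07). These 5 calls were kept under TMM scaling, with log2 differences of 0.58 to 1.82. The call with Rspo2 in WT cultures was lost without WT culture 30 (limma adjusted p = 0.0627), and that with Rspo1 in KO cultures without KO culture 7 (log2 0.75; 0.0708).

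Notch1, the most abundant receptor, moved less. With Rspo2 it rose from 137.30, 185.80 and 153.50 CPM in WT cultures 10, 5 and 30 to 284.25, 280.05 and 291.40 CPM (log2 0.85, SE 0.17, limma adjusted p = 0.000673). With Rspo1 and Rspo3 its log2 difference was 0.41 and 0.57 in WT cultures and 0.58 and 0.53 in KO cultures. Those 4 calls lay 0.13 to 0.39 above the median gene and were lost under TMM scaling (limma adjusted p = 0.783, 0.154, 0.275 and 0.407), while the one with Rspo2 in WT cultures was kept (0.0128). The Rspo1 call was lost without WT culture 10, 5 or 30 (0.134, 0.0698 and 0.0928) and the Rspo3 call without culture 30 (0.0669). In KO cultures both were lost without KO culture 7 (0.268 and 0.0547), KO culture 2 (0.189 and 0.523) or WT culture 30 (0.0667 and 0.0707). Notch3 was low throughout, at 1.00 to 2.20 CPM in WT cultures at 5 ng/ml and 1.65 to 7.05 CPM at 100 ng/ml. With Rspo2 it rose from 1.10, 2.20 and 1.05 CPM to 5.20, 5.30 and 7.05 CPM (log2 1.5, SE 0.22, limma adjusted p = 4.21e-05), and no WT library at 5 ng/ml reached the lowest value at 100 ng/ml of the same ligand. Its smaller rise with Rspo3 in WT cultures (log2 0.59) was lost without WT culture 10 or 5 (limma adjusted p = 0.212 and 0.128) and under TMM scaling (0.0910), and in KO cultures it rose by 1.20 with Rspo1 and by 1.15 with Rspo3, the latter call being lost without KO culture 2 (0.0943) and the former in the fit of the 2 groups alone. The 12 mesenchymal and mural markers summed to 9.25 to 20.1 CPM in the 30 organoid libraries.

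Among ligands, Dll4 rose and Dll1 did not. Dll4 went from 17.10, 8.85 and 11.90 CPM to 25.70, 21.20 and 26.35 CPM with Rspo1 in WT cultures 10, 5 and 30 (log2 0.94, SE 0.24, limma adjusted p = 0.00228). With Rspo3 it went from 10.15, 6.70 and 11.75 CPM to 18.30, 15.55 and 26.80 CPM (log2 1.01, SE 0.24, limma adjusted p = 0.00122). With Rspo2 it was at 19.40, 16.95 and 24.40 CPM and at 30.05, 17.60 and 29.30 CPM, higher at 100 ng/ml in each culture but with overlap between doses and no call (log2 0.30, SE 0.24, limma adjusted p = 0.339). In KO cultures it rose with Rspo1 (log2 0.88) and Rspo3 (log2 0.80), calls lost under TMM scaling (limma adjusted p = 0.0892 and 0.135), without KO culture 7 (0.410 and 0.240) and without KO culture 2 (0.106 and 0.170). Dll1, the other delta-like ligand, ranged from 121.30 to 172.20 CPM in WT cultures at 5 ng/ml and from 101.70 to 164.70 CPM at 100 ng/ml, and was higher at 100 ng/ml in 1 of 3 WT cultures with each ligand. Under TMM scaling Dll1 fell with Rspo1 in WT cultures (log2 -0.45, limma adjusted p = 0.0450), and its sign with Rspo1 in KO cultures turned from 0.06 to -0.18.

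For the dose, Jag1 was called in KO cultures and in no WT comparison when all 30 libraries were fitted together. With Rspo1 it rose from 34.45 and 48.25 CPM in KO cultures 7 and 2 to 95.90 and 57.75 CPM (log2 0.85, SE 0.23, limma adjusted p = 0.00832), and with Rspo3 from 51.00 and 48.65 CPM to 94.45 and 74.95 CPM (log2 0.74, SE 0.23, limma adjusted p = 0.0119). Culture 7 gave the larger rise with both ligands, and both calls were lost without it (limma adjusted p = 0.662 and 0.0872), as they were under TMM scaling (0.0591 and 0.127), and in fits of the 2 groups alone the Rspo1 call was lost (0.103) and the Rspo3 call kept. In WT cultures its log2 difference was 0.33 with Rspo1 and 0.43 with Rspo3 (limma adjusted p = 0.146 and 0.0632, the former turning to -0.01 under TMM scaling). The Rspo3 value passed when KO culture 7 or 2 was left out of the shared fit (0.0244 and 0.0243), in a fit of the 2 groups alone (0.00288) and with the culture as a block (0.0376), and the difference between genotypes in the response did not pass the test (log2 0.52 and 0.32, SE 0.30 each; unadjusted p = 0.0937 and 0.299).

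Hes1 was called with no ligand and in neither genotype. In WT cultures 10, 5 and 30 it was at 93.35, 124.85 and 111.00 CPM with 5 ng/ml of Rspo1 and at 73.10, 106.50 and 101.20 CPM with 100 ng/ml, lower in each culture (log2 -0.24, SE 0.16, limma adjusted p = 0.210). With Rspo3 it was at 80.30, 79.50 and 86.10 CPM and at 86.05, 84.70 and 85.90 CPM (log2 0.06, SE 0.16). Relative to the median gene the Rspo1 difference was -0.52, and under TMM scaling Hes1 fell with Rspo1 (log2 -0.58, limma adjusted p = 0.0111). The sign with Rspo2 and Rspo3 in WT cultures and with Rspo3 in KO cultures turned from higher to lower under that scaling, without a call. Olfm4, a stem cell gene that Notch signalling is known to maintain, rose in the same WT cultures by 4.20, 3.49 and 6.27 with Rspo1, Rspo2 and Rspo3.

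Spdef and Gfi1 rose with Rspo1 and Rspo3 in WT cultures, and Atoh1 lay higher with both without a call. With Rspo3, Spdef went from 13.75, 13.40 and 18.55 CPM in WT cultures 10, 5 and 30 to 33.10, 28.80 and 42.00 CPM (log2 1.13, SE 0.20, limma adjusted p = 7.05e-05). With Rspo1 it went from 29.30, 17.20 and 21.80 CPM to 44.35, 29.45 and 40.75 CPM (log2 0.73, SE 0.20, limma adjusted p = 0.00444). With Rspo2 it was at 32.30, 28.90 and 39.75 CPM and at 35.65, 28.65 and 37.55 CPM, with overlapping doses (log2 0.02, SE 0.20, and -0.22 under TMM scaling). Gfi1 went from 1.70, 1.60 and 2.65 CPM to 3.80, 3.40 and 5.00 CPM with Rspo3 (log2 0.77, SE 0.18, limma adjusted p = 0.000909), and its log2 difference was 0.63 with Rspo1 and 0.53 with Rspo2, the latter lost without WT culture 10 or 30 (limma adjusted p = 0.166 and 0.264). Under TMM scaling the Rspo3 calls of both genes were kept, and the Rspo1 calls (limma adjusted p = 0.117 for Spdef and 0.0905 for Gfi1) and the Rspo2 call of Gfi1 (0.155) were not. In KO cultures Gfi1 rose by 0.64 with Rspo1, a call lost under TMM scaling (0.124) and without KO culture 7 or 2 (0.234 and 0.229), and by 0.78 with Rspo3, kept under TMM scaling (0.0349) and lost without KO culture 7 (0.298). Spdef was not called there (log2 0.42 and 0.58), except with Rspo3 when WT culture 5 was left out (0.0401) or the culture was a block (0.0139).

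Atoh1 was at 12.75, 7.35 and 16.80 CPM in WT cultures 10, 5 and 30 with 5 ng/ml of Rspo3 and at 20.75, 13.00 and 28.20 CPM with 100 ng/ml (log2 0.71, SE 0.30, limma adjusted p = 0.0513). With Rspo1 it was at 16.30, 9.00 and 15.35 CPM and at 18.85, 15 and 22.00 CPM (log2 0.46, SE 0.30, limma adjusted p = 0.201). With Rspo2 it was at 21.55, 14.55 and 23.90 CPM and at 23.35, 13.10 and 22.40 CPM, higher at 100 ng/ml in 1 of the 3 cultures (log2 -0.04, SE 0.30, limma adjusted p = 0.929, and -0.27 under TMM scaling). Atoh1 was higher at 100 ng/ml in each of the 3 cultures with Rspo1 and Rspo3, a direction shared within every culture by 56.5% of genes with Rspo3 and 57.9% with Rspo1, and the doses overlapped. With the culture as a block both were called (limma adjusted p = 0.00203 and 0.0347, where 61% and 63.5% of genes were called), and with Rspo3 also without WT culture 5 (0.0203), with a pseudocount of 0.1 (0.0488) or with genes of at least 10 CPM on average (0.0451). Over the same doses the sum of 7 goblet products overlapped, at 2735 to 4889 CPM with 100 ng/ml of Rspo1 against 4179 to 9360 CPM with 5 ng/ml and at 4034 to 7164 against 4528 to 8816 CPM with Rspo3. The sum of 5 Paneth products did not, at 668 to 1195 against 130.5 to 267 CPM with Rspo1 and at 395 to 527 against 75.00 to 107 CPM with Rspo3. With Rspo2 neither sum overlapped. Goblet products were at 2533 to 3571 CPM with 100 ng/ml against 4747 to 7801 CPM with 5 ng/ml, and Paneth products at 936 to 1532 against 263 to 331 CPM. Their part in the Atoh1 values was not tested.

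**Figure D4:**
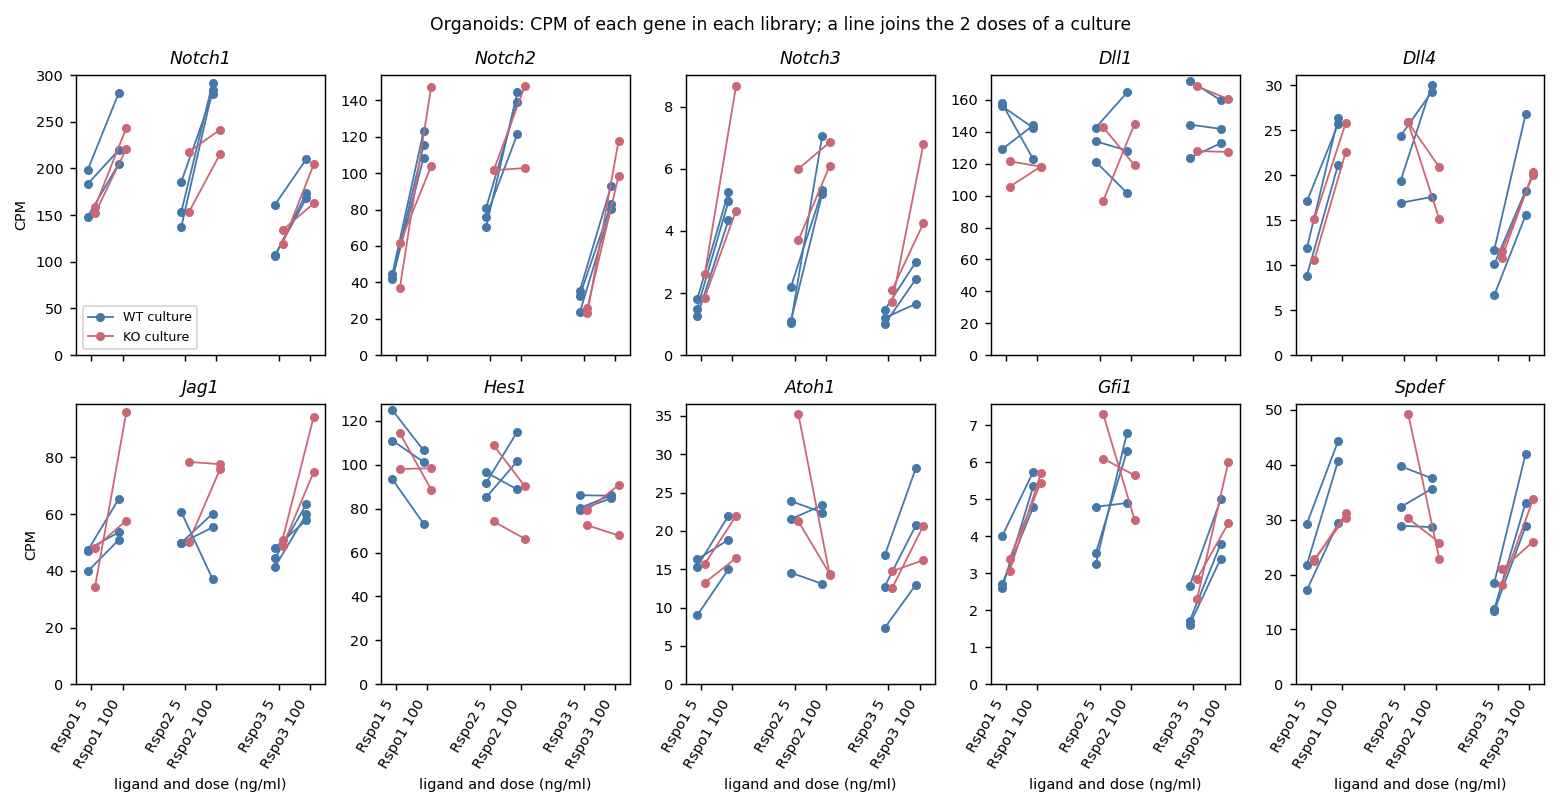
CPM of each member in the 30 organoid libraries, 1 panel per gene, at 5 and 100 ng/ml of each ligand, with lines joining the libraries of 1 culture; the vertical axis is CPM. Blue lines are WT and red lines KO cultures. Notch1, Notch2 and Notch3 are higher at 100 ng/ml in every WT culture, and Atoh1, Gfi1, Spdef and Dll4 are lower in both KO cultures with Rspo2, without a call.

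With Rspo2 no member was called for the dose in KO cultures, and 4 members lay lower at 100 ng/ml. Atoh1 was at 35.20 and 21.25 CPM in KO cultures 7 and 2 at 5 ng/ml and at 14.25 and 14.40 CPM at 100 ng/ml (log2 -0.89, SE 0.36, limma adjusted p = 0.618). Spdef was at 49.35 and 30.25 CPM at 5 ng/ml and at 22.85 and 25.85 CPM at 100 ng/ml (log2 -0.65, SE 0.25, limma adjusted p = 0.552). Dll4 was at 25.90 CPM in both cultures at 5 ng/ml and at 15.10 and 20.90 CPM at 100 ng/ml, and Gfi1 at 6.10 and 7.30 CPM and at 5.65 and 4.45 CPM. These 4 members were lower at 100 ng/ml without overlap, as 10.8% of genes were, and none passed the test. Notch1, Notch2 and Notch3 went the other way in both cultures, by log2 differences of 0.02 to 0.60, also without a call. At 5 ng/ml of Rspo2, KO culture 2 also held 90.45 CPM of Lgr5, above its 75.00 CPM at 100 ng/ml, whereas KO culture 7 went from 20.55 to 104.45 CPM, and in WT cultures Lgr5 was at 6.10 to 28.70 CPM at 5 ng/ml and 247 to 458 CPM at 100 ng/ml.

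KO and WT organoids were compared at each ligand and dose. The 1 member called in any of the 6 settings was Notch3 with 5 ng/ml of Rspo2, where 4.54% of genes were called (3.18% higher and 1.36% lower, or 2.02% and 1.7% under TMM scaling). It was at 1.10, 2.20 and 1.05 CPM in WT cultures 10, 5 and 30 and at 3.70 and 6.00 CPM in KO cultures 7 and 2 (log2 1.26, SE 0.25, limma adjusted p = 0.00665). The call was lost without WT culture 10, WT culture 30 or KO culture 2 (limma adjusted p = 0.0724, 0.0731 and 0.0541) and in a fit of the 2 groups alone (0.111), and without WT culture 5 Gfi1 was called too (log2 0.80; 0.0489). Notch3 lay higher in KO cultures without overlap also with 100 ng/ml of Rspo3, at 4.25 and 6.80 CPM against 2.45, 3.00 and 1.65 CPM (log2 0.95, SE 0.25, limma adjusted p = 0.0731), as 17% of genes did. In the other settings 0.125% (Rspo1) and 0.193% (Rspo3) of genes were called at 5 ng/ml, and 0.214%, 1.2% and 0.868% at 100 ng/ml of Rspo1, Rspo2 and Rspo3. Averaged over the 6 settings of a culture, no member was called by limma, beside 0.171% of genes, while 2 members and 9.2% of genes had an unadjusted p under 0.05. The members were Notch3 (log2 0.57; adjusted p = 0.340) and Jag1 (log2 0.29; adjusted p = 0.398).

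Whether the dose response differed by genotype was tested with an interaction term. No member was called for any ligand, where 0% of genes were called with Rspo1 and Rspo3 and 0.439% with Rspo2. With Rspo2 at an unadjusted p under 0.05 there were 3 members, beside 12.7% of genes, all with a smaller rise or a fall in KO cultures. They were Notch3 (log2 -1.12, SE 0.35, limma adjusted p = 0.161), Gfi1 (log2 -0.88, SE 0.28; 0.174) and Dll4 (log2 -0.82, SE 0.38; 0.365). Atoh1 (log2 -0.85, SE 0.47, limma unadjusted p = 0.0846) and Spdef (log2 -0.66, SE 0.32, limma unadjusted p = 0.0501) did not reach that level. With the culture as a block Notch3 was called (limma adjusted p = 0.0269, where 3.85% of genes were). With the other ligands there were 0 and 1 members at that level, the 1 being Notch2 with Rspo3 (log2 0.63, SE 0.27). The KO cultures carried Ddx3y (55.00 to 73.50 CPM) and the WT cultures at most 0.45 CPM of it, so genotype and sex cannot be told apart here. The library of KO culture 2 with 100 ng/ml of Rspo1 also held 213 CPM of Xist, against at most 39.05 CPM in the other 11 KO libraries and at least 1029.70 CPM in WT ones, and its part in the values of that library was not tested.

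At 5 ng/ml the 3 Rspondins did not give equal levels of the receptors. By the study, organoid survival at this dose was full with Rspo2 but not with Rspo1 or Rspo3, and its part was not tested. The Rspondins are secreted proteins of related domain structure, and Rspo2 and Rspo3 were each compared with Rspo1 at the same dose and passage, which makes 4 comparisons per genotype with p-values adjusted over all genes. With Rspo2 against Rspo1 in WT cultures 3 members were higher, where 22.8% of genes were called and 16.4% higher. Notch2 was at 80.85, 76.10 and 70.30 CPM against 42.00, 44.65 and 42.55 CPM (log2 0.80, SE 0.17, limma adjusted p = 0.00213), Dll4 differed by 0.67 (SE 0.24; 0.0455) and Spdef by 0.56 (SE 0.20; 0.0485). With Rspo3 against Rspo1 in WT cultures Notch2 was lower, at 35.45, 23.55 and 32.75 CPM (log2 -0.50, SE 0.17, limma adjusted p = 0.0447), and so was Notch1, at 106.50, 161.35 and 106.85 CPM against 148.05, 198.10 and 183.20 CPM (log2 -0.51, SE 0.17, limma adjusted p = 0.0375), where 16.4% of genes were called and 12.7% lower. Under TMM scaling 9.81% of genes were higher and 8.87% lower with Rspo2, and 5.35% higher and 8.89% lower with Rspo3. Of these 5 calls, the Notch2 call with Rspo2 was the only one kept under TMM scaling, with no filter or in fits of the 2 groups alone. Each of the 5 was lost without WT culture 10 (limma adjusted p of 0.0654 to 0.160), and all but Notch2 with Rspo2 also without WT culture 30 (0.153 to 0.322). Without WT culture 5, Dll4 (0.0850), Spdef (0.146) and Notch2 with Rspo3 (0.379) were lost, and without KO culture 7 or 2 so were Dll4 (0.0695 and 0.0697) and Spdef (0.0540 each), while Hes1 was then called lower with Rspo3 (0.0438 and 0.0439). With the culture as a block, where 35% and 28.5% of genes were called, Atoh1 was higher with Rspo2 (0.0252), and Hes1, Gfi1 and Spdef were lower with Rspo3 (0.0214, 0.0398 and 0.0137), Gfi1 also with a pseudocount of 0.1 (0.0499).

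In KO cultures 5 members were higher with Rspo2 than with Rspo1 at 5 ng/ml, where 17.9% of genes were called and 13.6% higher. Notch2 was at 101.55 and 101.60 CPM in cultures 7 and 2 against 37.05 and 61.45 CPM (log2 1.07, SE 0.21, limma adjusted p = 0.00199). Dll4 was at 25.90 CPM in both against 10.60 and 15.15 CPM (log2 0.97, SE 0.29, limma adjusted p = 0.0243). Notch3, Gfi1 and Spdef differed by 0.84, 0.86 and 0.74, and with the culture as a block Atoh1 and Jag1 joined them, at 0.88 and 0.61 (limma adjusted p = 0.00512 and 0.0322, where 31.2% of genes were called). With Rspo3 against Rspo1, Notch2 was lower, at 23.05 and 25.80 CPM (log2 -0.94, SE 0.21, limma adjusted p = 0.00277), where 16.2% of genes were called and 13.1% lower, or 4.53% higher and 9.42% lower under TMM scaling. With the culture as a block Hes1 was called lower too (log2 -0.48; 0.0288, where 25.8% of genes were called). With KO culture 7 left out Gfi1, Dll4, Notch3, Spdef and the Notch2 call with Rspo2 were lost (limma adjusted p of 0.0885 to 0.632), and without KO culture 2 Gfi1, Dll4, Notch3, Spdef and the Notch2 call with Rspo3 (0.0513 to 0.179), while Jag1 was then called with Rspo2 (0.00819). Notch3 was lost without WT culture 10 (0.0710) and Spdef without WT culture 10 or 30 (0.0578 and 0.0517), and Atoh1 was called without WT culture 5 (0.0165). TMM scaling, under which 8.01% of genes were higher and 7.86% lower with Rspo2, kept Notch2 and Gfi1 and lost Dll4 (0.0531), Notch3 (0.0636) and Spdef (0.132). In fits of the 2 groups alone none of these calls was kept. In both genotypes Notch2 stood in the order Rspo2, Rspo1, Rspo3 at 5 ng/ml.

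At 100 ng/ml limma called no member between ligands in either genotype, where 0.204% and 0.00523% of genes were called in WT cultures and 0.0105% and 0% in KO cultures, and under TMM scaling 0.983% of genes were higher and 0.157% lower in the WT comparison of Rspo3 with Rspo1. At an unadjusted p under 0.05 there were 3 members in the WT comparison of Rspo3 with Rspo1, Notch1, Notch2 and Notch3, all lower with Rspo3, beside 22.3% of genes, and 0 in the other 3 comparisons. Notch3 was at 4.95, 5.25 and 4.35 CPM with Rspo1 and at 2.45, 3.00 and 1.65 CPM with Rspo3 in WT cultures 10, 5 and 30 (log2 -0.81, SE 0.22, limma adjusted p = 0.0717), without overlap. Notch2 was at 108.55, 123.15 and 115.50 CPM with Rspo1 and at 92.90, 80.45 and 82.90 CPM with Rspo3 (log2 -0.43, SE 0.17, limma adjusted p = 0.147), also without overlap, as 21.6% of genes lay lower. With the culture as a block Notch3 was called (limma adjusted p = 0.0100, where 14.3% of genes were), as it was when KO culture 7 or 2 was left out of the shared fit (0.0454 in each). For Hes1 the ligand differences at 100 ng/ml lay between -0.27 and 0.13 in the 4 comparisons, each with an SE of 0.16 to 0.19.

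Of 69 other genes of the pathway and of secretory fate, which were listed with the members, 56 to 67 were tested in a comparison. From E16.5 to E18.5, 16 of 56 rose and 9 fell, beside 30.3% and 19.4% of all genes. Olfm4 went from 152.05 and 164.45 CPM to 1941.25 and 1841.95 CPM (log2 3.57), and Lfng, which adds sugars to Notch receptors, from 6.30 and 3.55 CPM to 19.65 and 18.65 CPM (log2 1.81). The enteroendocrine factors Insm1 (log2 -2.74) and Neurog3 (log2 -1.65) fell, as did the Notch target Heyl, from 3.15 and 1.55 CPM to a listed 0 in both embryos. In adult cells 14 of 58 rose and 2 fell, beside 9.36% and 9.65% of all genes, the rises including Pou2f3, the tuft cell regulator, from 0.50 and 0.25 CPM to 11.95 to 164.10 CPM, and Bhlha15 (log2 3.11), a factor of secretory cell maturation. The feedback target Nrarp fell from 39.70 and 53.25 CPM to 21.10 to 30.20 CPM (log2 -0.91). Between gut regions 7 of 58 were called, beside 2.24% of all genes higher and 4.64% lower, with 2 higher in ileum, Creb3l1 (log2 1.80) and Foxa1 (log2 1.09), and 5 higher in duodenum, among them Pou2f3 (92.40 and 164.10 CPM against 11.95 and 23.60 CPM) and Gfi1b (log2 -3.26), while the 4 tuft products summed to 1625 to 2846 CPM in duodenum and 197 to 397 CPM in ileum.

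No gene of these 69 was called by limma between genotypes in sorted cells, of 61 tested at E16.5 and 67 in the Cre ileum. At an unadjusted p under 0.05 there were 10 and 1 of them, beside 13.6% and 4.54% of all genes. On the recovered reads of E16.5, edgeR and DESeq2 also called 0, of 43 and 45 with an adjusted p, beside 2.78% and 0.439% of all genes. These 2 tests had 6 and 2 of them at an unadjusted p under 0.05. In organoids, 36, 23 and 33 of 64 rose and 6, 8 and 7 fell with the dose of Rspo1, Rspo2 and Rspo3 in WT cultures, where 40.9%, 24.3% and 37.8% of all genes were higher and 12.5%, 9.12% and 13.7% lower. In KO cultures 21, 0 and 25 rose and 4, 0 and 3 fell, beside 21.9%, 0.115% and 32.7% higher and 7.86%, 0% and 11.8% lower. Under TMM scaling 21, 17 and 23 rose and 15, 14 and 15 fell in WT cultures, and 15, 0 and 16 rose and 6, 0 and 13 fell in KO cultures. Of all genes, 45.6%, 30.4% and 47.7% were then called in WT cultures (22.2%, 12.8% and 25.8% higher). In KO cultures 26.7%, 0.047% and 41.6% were (12.5%, 0.047% and 22% higher). Jag2, a ligand, and Sox9, a factor of crypt base and Paneth cells, were among the 4 largest rises with Rspo3 in both genotypes. In WT cultures 10, 5 and 30 Jag2 went from 6.95, 6.55 and 8.45 CPM to 55.50, 45.35 and 61.85 CPM with Rspo3 (log2 2.73). Numb, an inhibitor of Notch, was among the falls, from 143.80, 169.50 and 217.15 CPM to 86.35, 101.95 and 110.40 CPM with Rspo1 (log2 -0.81). The other secretory factors rose in 14, 10 and 15 of 22 tested in WT cultures, beside the same 40.9%, 24.3% and 37.8% of all genes. Between KO and WT cultures with 5 ng/ml of Rspo2, 8 of the 64 were higher and 1 was lower, beside 3.18% and 1.36% of all genes, and Bhlha15 was at 23.45 and 25.65 CPM in KO cultures against 8.85, 8.75 and 7.55 CPM (log2 1.45, limma adjusted p = 0.000322). Bhlha15 and Sox9 also differed in the genotype by dose term for Rspo2 (log2 -1.77 and -1.71).

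Across the 30 organoid libraries, in which libraries of 1 culture share an embryo and doses share a medium, Dll4 and Spdef had the closest patterns among the members compared (Pearson r = 0.91 of log2 values, n = 30 libraries). Atoh1 and Spdef followed with 0.85, Notch2 and Dll4 with 0.83, Dll4 and Atoh1 with 0.81 and Notch1 and Notch2 with 0.76. Jag1 and Hes1 ran against each other, with -0.58. Between Hes1 and Atoh1 the value was -0.06. Of 12338 genes, those most like Hes1 were Ppm1l (0.81), Fam117b (0.79), Gbe1 (0.79) and Man2a1 (0.78), and those most like Atoh1 were C2cd4c (0.91), Ampd3, Lrrc26 and Selenom (0.90 each). These values are descriptions over libraries that are not independent.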

How the data were processed

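Libraries of sorted cells (15) and of organoids (30) were compared only within their own table. Both deposited tables hold CPM, reads on a gene scaled to a common total of reads on genes, which the authors made from paired-end reads trimmed with Trimmomatic 0.36, aligned to GRCm38 with STAR 2.5.3a and counted with HTSeq 0.9.1, and which are rounded up to the next 0.05 CPM. The kits differed, Ovation SoLo for sorted cells and NEBNext with rRNA depletion for organoids. Of 52636 identifiers, 52489 matched the reference annotation of GRCm38, which gave exon lengths for CPM per kb.

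The members and all gene lists were chosen with earlier results of these data known. The values were tested with limma 3.58.1 (R 4.3.3) on log2(CPM + 1), which understates the change of low genes, for genes that reached 1 CPM in a number of libraries equal to the size of the smallest group. A sorted-cell call needed an adjusted p under 0.1 and a change of at least 1.5-fold, as in the study, and organoids were called in 1 fit of 12 groups at an FDR of 0.05, with Benjamini-Hochberg adjustment over all genes tested. The text names the 10 members, Lgr5, at most the 4 largest called rises and 4 largest called falls among 69 other pathway genes per comparison, and the 4 genes most like Hes1 and Atoh1 over organoid libraries. Xist and Ddx3y, outside this rule, were named after their values were seen. Separate cultures, pools, embryos and mice serve as replicates, but the main fits held no block for litter, mouse or culture. The adult group took 4 libraries of 2 mice, and the organoid fit all 30 libraries, several to a culture, as if independent. The p-values therefore measure the spread between libraries within groups, which is not always that between animals or cultures.

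The depth of each library was inferred from the steps between its CPM values. At that depth at least 99.9% of low values were whole reads in every library. In organoids 1 read is worth 0.0302 to 0.0552 CPM, close to or below the rounding step of 0.05 CPM. Nearly any value would pass there, so the share checks little in organoids. In the E16.5 pools 1 read is worth many rounding steps, and edgeR 4.0.16 and DESeq2 1.42.0 were run on the recovered reads there. edgeR's filter left out Spdef and Gfi1, and DESeq2 gave both no adjusted p. Elsewhere 1 read is worth 0.0302 to 0.324 CPM and the count tests were not run. Same-numbered pools of E16.5 share a litter (r = -0.0324 between deviations from the group means) and adult regions share a mouse (r = 0.257), both by the labels. Organoid libraries of 1 culture share an embryo, and all 75 pairs of libraries correlated above 0.1 (lowest 0.155, median 0.498). Promoters come from RefSeq, and figures and summaries from Python 3.11.15. The alternatives were other pseudocounts, filters and TMM scaling, the replicate block, other sets of samples and each replicate left out. The scripts were tested on simulated data with planted changes of 2 on the log2 scale. The E16.5 genotype comparison recovered 75.5% of them, and the other comparisons simulated 98.5% to 100%. A change at E16.5 can therefore be missed more easily.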

Additional observations from a re-analysis of the deposited data

Results flagged for a closer look

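Among the 4 adult Lgr5-DTReGFP HE libraries, Spdef was at 36.2 CPM in ileum 2 and at 10.75, 7.50 and 5.85 CPM in the other 3, a gap to the nearest value that is large for 4 values (by Dixon's test, which chance passes in about 1 in 20 groups). The test was run at both ends for each of the 10 members, so a pass by chance is likely in some of them. It takes the 4 libraries as independent, though they are 2 regions of 2 mice. The same library held 63.20 CPM of Atoh1 and 11.45 CPM of Gfi1, both the highest of the 4. Their gaps were 0.811 and 0.801 of the range, against 0.839 for Spdef, and the 7 goblet products of this library summed to 8280 CPM. The part of goblet cells in the Spdef value was not tested.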

How the results depend on the processing

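No value turned its direction with a call. With the litter as a replicate block, 1 member was called at E16.5 instead of 0. Between E18.5 and E16.5 the 6 calls ranged from 0 to 6 with 1 replicate left out. Between adult and E18.5 cells the 1 call became 3 in the fit of all 15 libraries, 2 with duodenum alone, 4 with ileum alone and 4 with the mean of each mouse, and 0 to 3 with 1 replicate left out. Between ileum and duodenum the 2 calls became 1 with a pseudocount of 0.1, 0 under TMM scaling, 0 with no filter, 0 with a mean of at least 10 CPM and 5 with the mouse as a replicate block, 3 in the fit of all 15 libraries, and 0 to 3 with 1 replicate left out. In cKO cells the 0 calls became 1 with the supplementary genotypes. The 16 dose calls in WT cultures became 12 under TMM scaling and ranged from 12 to 17 with 1 replicate left out. Of those 12, Dll1 and Hes1, both lower with Rspo1, were not among the 16. The 12 in KO cultures became 5 under TMM scaling, 7 with no filter, 7 with only the groups compared, and 3 to 13 with 1 replicate left out. The 1 call between KO and WT cultures became 0 with a mean of at least 10 CPM or only the groups compared, and 0 to 2 with 1 replicate left out. The 5 ligand calls in WT cultures became 1 under TMM scaling, 1 with no filter, 1 with only the groups compared and 10 with the culture as a replicate block, and 0 to 5 with 1 replicate left out. The 6 in KO cultures became 3 under TMM scaling, 3 with no filter and 0 with only the groups compared, and 1 to 7 with 1 replicate left out. For genotype by dose, 0 became 1 with the culture as a replicate block. Beyond the calls given in the report, the replicate block changed none. The cause of these changes was not tested.

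In cKO and HE cells, which share replicate numbers but no animal (r = 0.161 and 0.419), the block added no member, and E18.5 and E16.5 samples share only a number (r = -0.0186). Leaving out 1 of 2 samples assumes that the lone sample varies like the other groups. The alternatives of DESeq2 and edgeR outside the E16.5 pools were not run. Depth limits the E16.5 pools most, where Spdef, Gfi1 and Atoh1 rest on 0 to 19 reads. In organoids the median of the 8 correlations with Hes1 or Atoh1 was 0.853, or 0.795 as Spearman's rho and 0.819 for deviations from culture means.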
